A study of Mus musculus with 18 samples.

Results

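The genes described here are the D-type cyclins Ccnd1, Ccnd2 and Ccnd3, the MCM helicase genes Mcm2, Mcm3, Mcm4, Mcm5, Mcm6 and Mcm7, and Nusap1, which encodes a microtubule-binding protein of the mitotic spindle. They were taken as all probes that the platform annotation assigns to these 10 gene symbols, which gave 26 of the 45281 probes and 10 of the 19057 named genes. Hippocampal RNA from C57BL/6J mice was hybridised to 18 Illumina mouse bead arrays. There were 5 arrays of adult mice (age P56 in the labels) given a cannabis extract, 5 of adult mice given vehicle, 4 of cannabis mice killed at P28 and 4 of vehicle mice killed at P28. The extract (20 mg/kg per day) was fed by hand for 14 days, from P14 to P28, in an emulsion of condensed milk and olive oil, and vehicle was the same emulsion without extract. P28 mice were killed 70 to 80 min after feeding began. The adults of both treatments had also undergone a battery of behavioural tests, the last with phencyclidine, and a drug-free interval of 2 weeks, so age and this history cannot be told apart. No label says that each array is a separate mouse, so p-values measure only how these samples spread, and that spread may be technical.

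D-type cyclins are made when growth signals reach a cell, and they activate the kinases Cdk4 and Cdk6. These kinases phosphorylate the retinoblastoma protein, which then releases E2F transcription factors, and E2F factors drive genes of DNA replication, the MCM genes among them. The MCM proteins form the hexameric helicase that is loaded onto replication origins before S phase and unwinds DNA during it. In the hippocampus most cells are neurons that no longer divide, while progenitors of the dentate gyrus and oligodendrocyte precursors keep cycling, and Ccnd2 is known from mouse knockouts as the D cyclin that adult neurogenesis in the dentate gyrus needs.

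RefSeq promoter windows of 300 bases (250 before and 50 after the transcription start, build GRCm38.p6) were listed for 7 of the 10 genes. Ccnd3 and Mcm7 had 2 windows each, and only the first listed window of every gene was used. These windows were searched on both strands for the E2F-type letters TTTCCCGC, TTTGGCGC, TTTCGCGC and TTTGCCGC, where matches on opposite strands may overlap. At least 1 match was found in Mcm3, Mcm5, Mcm6 and Mcm7 and none in these windows of Ccnd3, Mcm2 and Nusap1, while 626 of 27025 promoters (2.32%) held one. The windows of Mcm5 (2 matches) and Mcm6 (3 matches) are shown because both genes were above background on every array. They lie at chr8:75109259-75109558 on the plus strand and at chr1:128359656-128359955 on the minus strand, and capitals mark the matched letters.
Mcm5: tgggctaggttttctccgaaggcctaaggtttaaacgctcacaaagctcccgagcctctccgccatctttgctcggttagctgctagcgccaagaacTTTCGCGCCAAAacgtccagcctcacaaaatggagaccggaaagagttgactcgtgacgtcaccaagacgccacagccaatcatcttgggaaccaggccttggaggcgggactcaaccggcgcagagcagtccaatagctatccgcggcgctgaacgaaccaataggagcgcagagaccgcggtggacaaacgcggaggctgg
Mcm6: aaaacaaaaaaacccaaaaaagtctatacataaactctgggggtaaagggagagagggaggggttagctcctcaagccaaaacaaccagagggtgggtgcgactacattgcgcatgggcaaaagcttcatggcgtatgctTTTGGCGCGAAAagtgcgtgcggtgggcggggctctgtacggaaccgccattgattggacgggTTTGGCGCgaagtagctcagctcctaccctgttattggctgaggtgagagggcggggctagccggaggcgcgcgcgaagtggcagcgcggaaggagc
Both windows hold a place where matches on opposite strands overlap, and Mcm6 has another match closer to its start. A match is a string of letters and no measurement of E2F binding.

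Values are log2 intensities from the authors' deposited value table, and every difference below is a difference of log2 values. A probe was taken as above background if it exceeded 6.98, a level set from the peak of unexpressed probes, on at least 4 arrays, which left 18249 probes for testing. Of the 26 probes, 15 probes of 9 genes passed. The other 11 lay between 6.58 and 7.004 and exceeded the level in 1 array value in all. They include the single probe of Mcm3, which was above background on 0 of 18 arrays, so that nothing can be said here of this subunit. Among the probes kept, the brightest of Mcm2 was above the level on 11 arrays and those of Mcm7 and Nusap1 on 7 each, and the third probe of Ccnd1 on 16. The 11 remaining probes were above it on all 18. The values hold an array background, so differences are compressed, most of all in these dim probes.

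The tissue check rests on neuronal markers. The synaptic gene Syt1 lay between 13.49 and 13.92 on all arrays and the dentate granule gene Prox1 between 8.47 and 9.43, while the listed probe of Snap25 was at background on all 18. Replicates 4 and 5 of every group, the last 6 samples in the order of deposit, stood apart: 4311 probes (23.6%) differed between them and replicates 1 to 3 within groups by limma. These 6 are 2 of 5 arrays in each adult group and 1 of 4 in each P28 group. Of the 15 cell cycle probes, 3 were among those called, all higher in replicates 4 and 5: the second Ccnd2 probe by 0.27, the brightest Mcm6 probe by 0.27 and the Mcm7 probe by 0.18. No label names a batch, and the differences of these 3 probes are given below within replicates 1 to 3 and within replicates 4 and 5. Values within replicates 4 and 5 that involve P28 rest on 1 array in each P28 group.

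The first comparison sets adult cannabis mice against adult vehicle mice, weeks after the last dose. Of the 15 probes, 0 were called at an adjusted p of 0.05 by limma, as were 0 of all 18249 probes (0%), among which 647 had an unadjusted p below 0.05. Of the 15, 4 had an unadjusted p below 0.05, namely the 3 Ccnd2 probes and Nusap1. The Ccnd2 probes read the same gene, and the members were chosen with earlier results of these data known. The counts set beside all probes here are therefore no test of the members as a set. The median difference of the 15 was 0.08 and that of all probes 0.0015, with 10 of 15 above 0. The groups did not overlap for 1 of the 15 probes, the brightest of Ccnd2, where the adult cannabis arrays were the lower ones, and over all probes this was so in that direction for 0.181%.

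Ccnd2, the D cyclin of adult neurogenesis, read in its brightest probe (ILMN_2700166) 9.53, 9.37, 9.43, 9.10 and 9.32 in adult cannabis mice, against 9.71, 9.57, 9.72, 9.84 and 9.82 in adult vehicle mice. Every adult cannabis array was below every adult vehicle array. The means were 9.35 ± 0.16 and 9.73 ± 0.11 (adult cannabis and adult vehicle, SD, n = 5 each), and the difference was -0.38 ± 0.11 (SE), a fold of 0.766 with a 95% interval of -0.61 to -0.16 on the log2 scale. By limma the unadjusted p was 0.00193, rank 21 of 18249 probes, and the adjusted p was 0.9998, so the difference is not called. In dissected tissue fewer cells that express Ccnd2 and less Ccnd2 RNA per cell cannot be told apart.

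The second Ccnd2 probe (ILMN_2700168) read 8.88, 8.53, 8.53, 8.63 and 9.04 in adult cannabis mice, against 8.88, 9.03, 9.01, 9.30 and 9.44 in adult vehicle mice. Its difference was -0.41 ± 0.13 (SE), with an unadjusted p of 0.00601 by limma, and the groups overlapped, since cannabis replicate 5 stood above 3 of the 5 vehicle arrays. The third and dimmest probe (ILMN_1225932), annotated to another transcript record than the first 2, read 7.73, 7.64, 7.69, 7.53 and 7.76 in adult cannabis mice, against 7.81, 7.86, 8.03, 7.88 and 7.63 in adult vehicle mice. Here the difference was -0.17 ± 0.07 (SE), with an unadjusted p of 0.0317 by limma, and only the vehicle array of replicate 5 lay inside the cannabis range. All 3 probes thus had the same sign in adults. Across the 18 arrays the brightest probe followed the second with Pearson's r of 0.691 and the third with 0.190.

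The size of the adult Ccnd2 difference varied with the arrays used, and in the brightest probe its sign was the same under all 30 alternatives, with adjusted p values of 0.296 or more by limma. Filters, priors and leaving out a P28 array cannot change this difference, so many of these alternatives only repeat it. Without 1 array at a time the difference ranged from -0.43 to -0.32 in that probe. Within replicates 1 to 3 it was -0.23, and within replicates 4 and 5 it was -0.62. Within the first 6 samples in the order of deposit, which hold 1 adult array of each treatment, it was -0.19, and within the next 6 it was -0.25. The second probe was at -0.33 within replicates 1 to 3 and -0.54 within replicates 4 and 5. It was at 0.0011 in that first set of 6 and had the sign of the full set under the other 29 alternatives.

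**Figure D1:**
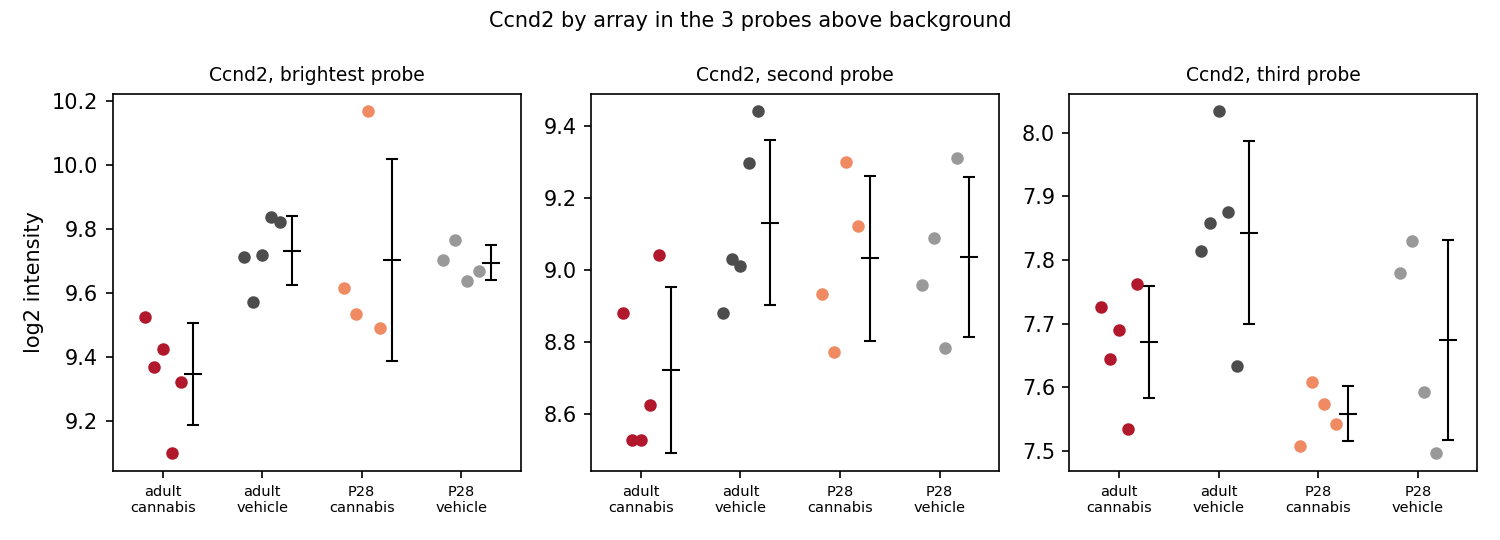
Log2 intensity of Ccnd2 (y axis, its own range in each panel) on every array of the 4 groups, in its brightest, second and in the third probe. Points are arrays, and bars are the mean ± SD of 5 arrays in adult groups and 4 in P28 groups. In the brightest probe the 5 adult cannabis arrays (9.10 to 9.53) lie below the 5 adult vehicle arrays (9.57 to 9.84), and 1 P28 cannabis array stands at 10.17.

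Markers of several cell types moved with this comparison, and their part in it was not tested. In adult cannabis against adult vehicle mice 7 of 7 measured oligodendrocyte markers were above 0 (list level, the mean over measured members, of 10.72 to 11.53 in adult cannabis and 10.42 to 11.19 in adult vehicle arrays). The same held for 6 of 6 oligodendrocyte precursor markers (8.52 to 9.03 in adult cannabis and 8.57 to 8.67 in adult vehicle arrays) with Olig2 and Cacng4 not above background. It held for 4 of 4 dentate granule neuron markers (8.90 to 9.38 in adult cannabis and 8.84 to 9.16 in adult vehicle arrays) with Calb1 not above background. It held for 7 of 8 immature neuron markers (7.73 to 8.36 in adult cannabis and 7.73 to 7.89 in adult vehicle arrays) with Draxin not above background. None of these was called, and the differences counted here, above 0, had the opposite sign to those of the Ccnd2 probes. The sign of Ccnd2 was shared by 7 of 8 choroid plexus markers, with a median of -0.07 (7.41 to 7.64 in adult cannabis and 7.20 to 7.77 in adult vehicle arrays), and by 2 of 3 ependyma markers, with a median of -0.30 (7.17 to 8.13 in adult cannabis and 7.41 to 8.02 in adult vehicle arrays), none of them called. Neuron markers were above 0 in 2 of 5 genes, with a median of -0.03 and none called. Their list level was 12.20 to 12.41 in adult cannabis and 12.16 to 12.42 in adult vehicle arrays, with Snap25 not above background. Of 7 neural progenitor markers 3 were measured (list level of 6.95 to 7.07 in adult cannabis and 6.97 to 7.06 in adult vehicle arrays), and Nes and Eomes were not above background. Of these 3 markers 2 were above 0, opposite in sign to Ccnd2, with a median of 0.041 and none called. Their list levels lie close to the background level, which limits what they can show.

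Ccnd1, the D cyclin most often linked to growth factor signals, read 10.07, 10.20, 10.51, 10.34 and 10.26 in adult cannabis mice, against 10.05, 9.89, 10.16, 10.08 and 10.36 in adult vehicle mice, in its brightest probe. The ranges overlapped, and the difference was 0.17 ± 0.09 (SE, 95% interval -0.018 to 0.36). Its other probes differed by 0.09 ± 0.08 and 0.08 ± 0.06 (SE), so the 3 probes shared the sign without any reaching an unadjusted p of 0.05 in limma. Ccnd3, the third D cyclin, gave 8.35, 8.07, 8.52, 8.22 and 8.37 in adult cannabis mice, against 8.24, 8.39, 8.37, 8.16 and 8.31 in adult vehicle mice. The cannabis arrays spread on both sides of the vehicle arrays, and the difference was 0.013 ± 0.088 (SE, 95% interval -0.17 to 0.20).

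**Figure D2:**
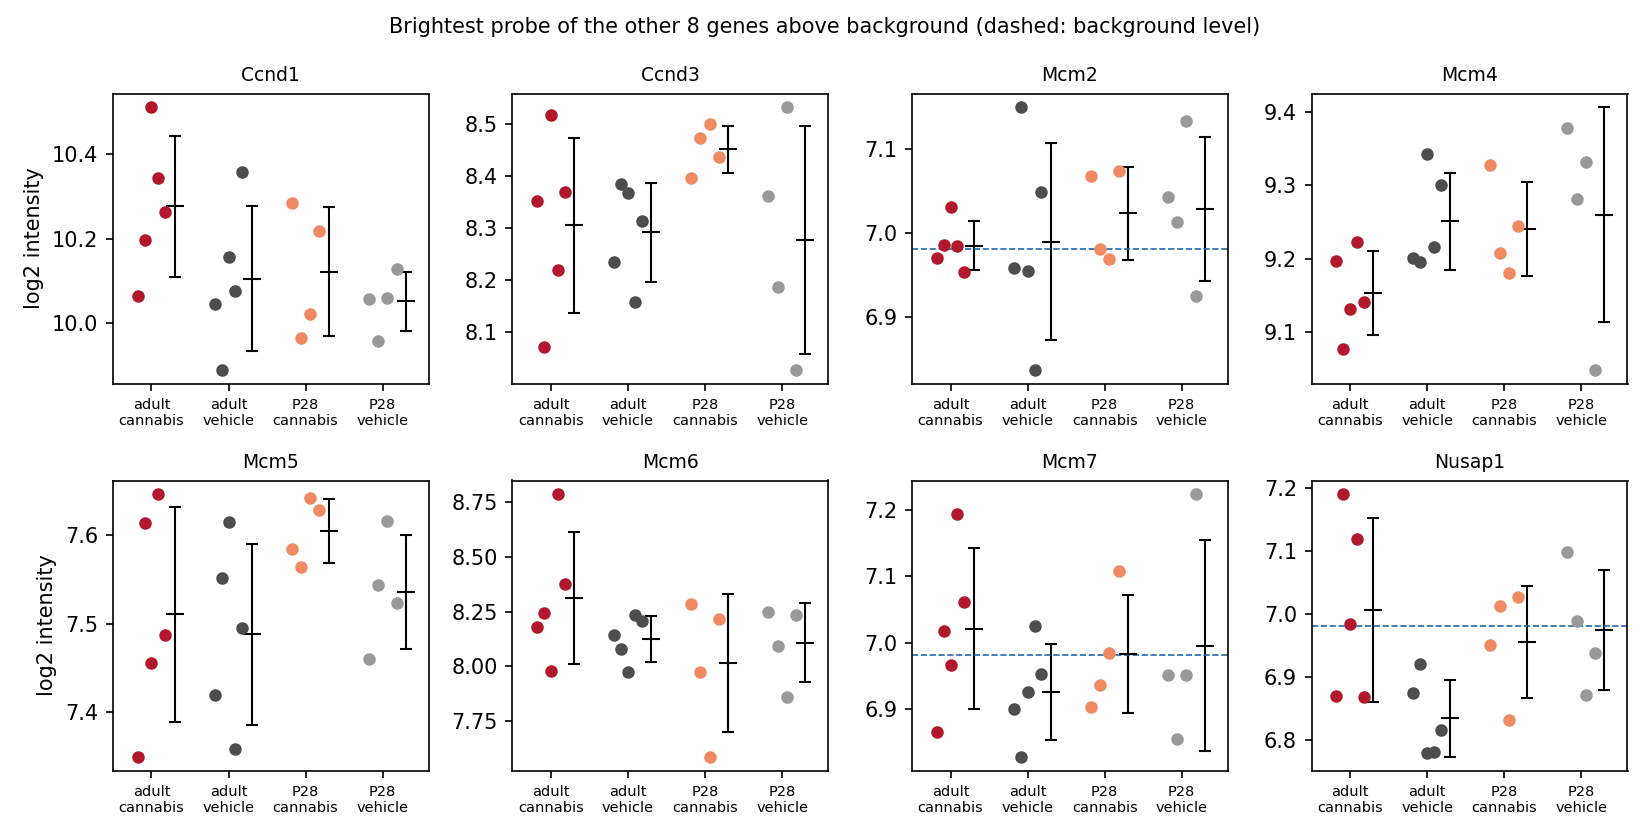
Log2 intensity (y axis, its own range in each panel) of the brightest probe of the other 8 genes above background, on every array of the 4 groups. Points are arrays, bars are the mean ± SD (n = 5 in adult groups and 4 at P28), and the dashed line is the background level of 6.98, drawn where it falls in the range of a panel (Mcm2, Mcm7 and Nusap1). All ranges of cannabis and vehicle arrays overlap within an age.

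Of the MCM subunits, Mcm6 had 3 probes above background. Its brightest probe (ILMN_1217331) read 8.18, 8.25, 7.98, 8.79 and 8.37 in adult cannabis mice, against 8.14, 8.08, 7.97, 8.23 and 8.21 in adult vehicle mice. The highest value was replicate 4 of the cannabis mice, and the difference was 0.19 ± 0.14 (SE), at 0.07 within replicates 1 to 3 and 0.36 within replicates 4 and 5. The other probes differed by 0.10 ± 0.09 and 0.13 ± 0.07, with the same sign and overlapping groups. Mcm4, a catalytic subunit, lay between 9.08 and 9.22 in adult cannabis mice and between 9.20 and 9.34 in adult vehicle mice, a difference of -0.10 ± 0.06 (SE, 95% interval -0.22 to 0.028). Mcm5 lay between 7.35 and 7.65 in adult cannabis mice and between 7.36 and 7.61 in adult vehicle mice, a difference of 0.023 ± 0.061 (SE, 95% interval -0.11 to 0.15).

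Mcm2 and Mcm7 were close to background, which limits what their values can show. Mcm2 was above the level on 3 of 5 adult cannabis and 2 of 5 adult vehicle arrays and differed by -0.0046 ± 0.0558 (SE). Mcm7 was above it on 3 of 5 adult cannabis and 1 of 5 adult vehicle arrays and differed by 0.10 ± 0.07 (SE), at 0.07 within replicates 1 to 3 and 0.14 within replicates 4 and 5. The subunits of the helicase therefore had differences of either sign in adults, none of them past an unadjusted p of 0.05 in limma.

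Nusap1, the spindle protein gene, read 6.87, 7.19, 6.98, 7.12 and 6.87 in adult cannabis mice, against 6.87, 6.92, 6.78, 6.78 and 6.81 in adult vehicle mice. It was above background on 3 adult cannabis arrays and on 0 adult vehicle arrays, and the ranges overlapped. Adult vehicle mice have only an upper bound, taken on each array as the lowest signal above background or, where higher, the probe's own signal. The adult cannabis mean was 1.02-fold above that bound. It includes the cannabis arrays at 6.87, which were at background too, so this fold is no firm minimum. The measured difference was 0.17 ± 0.07 (SE), with an unadjusted p of 0.0189 and an adjusted p of 0.9998 by limma. With background correction of the unlogged values it was 0.50, and within the first set of 6 it was -0.0041.

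**Figure D3:**
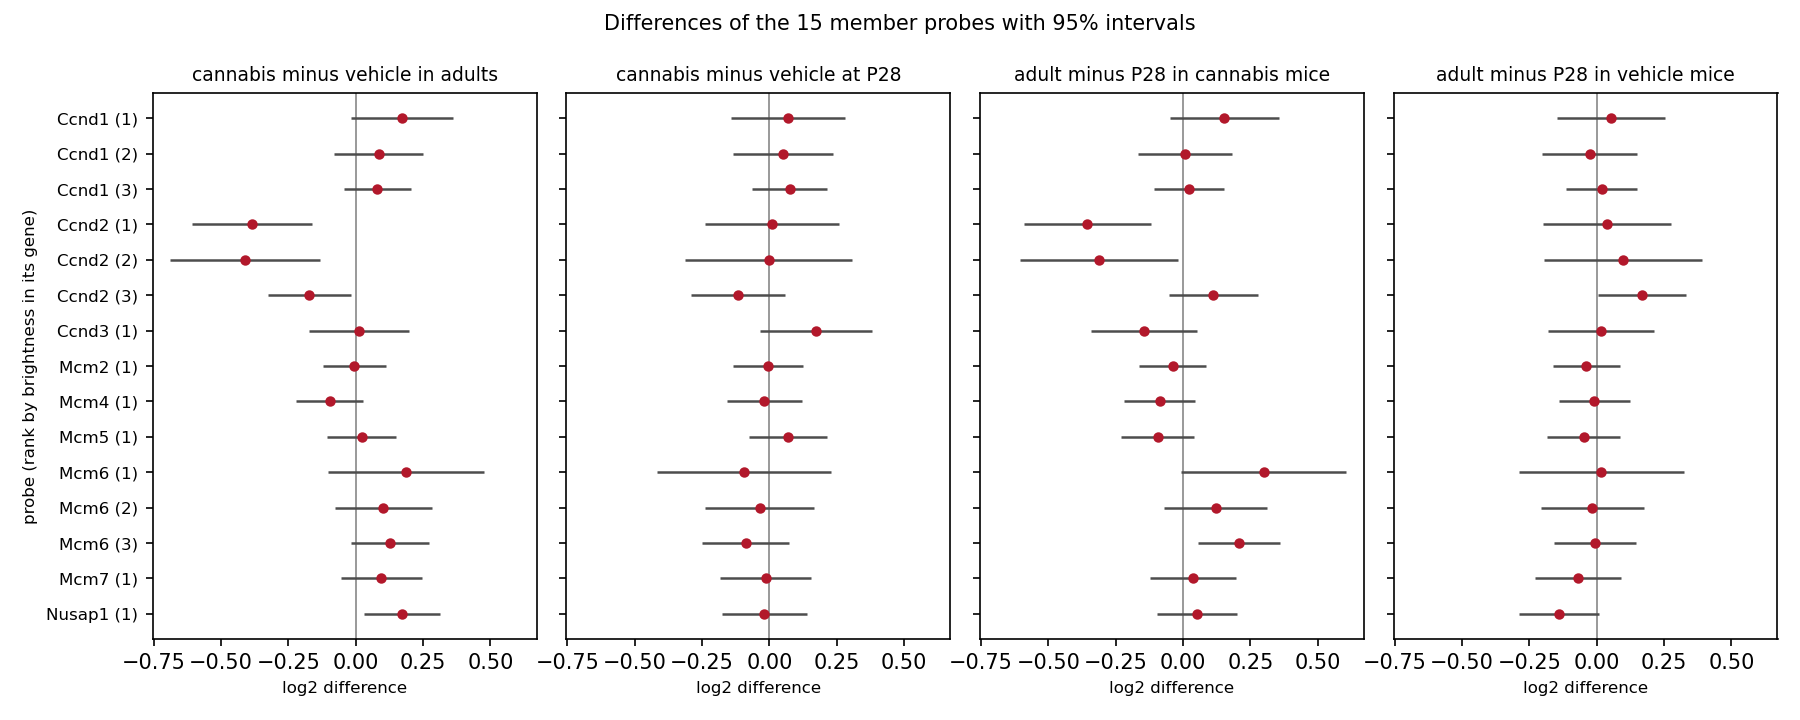
Differences of log2 intensity (x axis) with 95% intervals for the 15 probes above background, 1 row per probe, numbered by brightness within its gene, in the 4 comparisons of 2 groups. The intervals of the 3 Ccnd2 probes lie below 0 in adults (-0.38, -0.41 and -0.17) and cross 0 at P28.

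At P28, directly after the last dose, 0 of the 15 probes were called when cannabis mice were set against vehicle mice, beside 0 of all probes (0%) by limma, among which 327 had an unadjusted p below 0.05. None of the 15 had an unadjusted p below 0.05 and none had groups that did not overlap, against 0.844% of all probes with cannabis higher and 0.745% with cannabis lower. Their median difference was -0.0055 and that of all probes -0.00055. An added fit used replicate number as a block over all groups, and it called none of the 15 either. That block ties same-numbered arrays of both ages, so it is no fit of P28 pairs alone.

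The brightest Ccnd2 probe read 9.62, 9.54, 10.17 and 9.49 in P28 cannabis mice, against 9.71, 9.77, 9.64 and 9.67 in P28 vehicle mice. Replicate 3 of the cannabis mice was above every vehicle array and the other 3 were below every one, so the mean difference of 0.0093 ± 0.1185 (SE) joins values on both sides. Without that array it was -0.15. The second probe differed by -0.0026 ± 0.1477 and the third by -0.12 ± 0.08 (SE). Within replicates 1 to 3 the second probe was at 0.06 and within replicates 4 and 5 at -0.19.

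Ccnd3 read 8.40, 8.47, 8.50 and 8.44 in P28 cannabis mice, against 8.36, 8.19, 8.53 and 8.03 in P28 vehicle mice. The cannabis arrays were close together and lay inside the wide vehicle range, with a difference of 0.17 ± 0.10 (SE, 95% interval -0.033 to 0.38). The 3 Ccnd1 probes differed by 0.07 ± 0.10, 0.05 ± 0.09 and 0.08 ± 0.07 (SE), all above 0 as in adults. Among the MCM genes the 3 Mcm6 probes differed by -0.09 ± 0.15, -0.035 ± 0.096 and -0.09 ± 0.08, Mcm5 by 0.07 ± 0.07, Mcm4 by -0.020 ± 0.066, Mcm7 by -0.013 ± 0.080 and Mcm2 by -0.0055 ± 0.0624 (SE). Nusap1 differed by -0.019 ± 0.075 (SE). Without replicate 3 of the P28 cannabis mice the brightest Mcm6 probe was at 0.049, with the sign turned. That probe was at -0.12 within replicates 1 to 3 and -0.019 within replicates 4 and 5, and Mcm7 at 0.022 within replicates 1 to 3 and -0.12 within replicates 4 and 5.

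In P28 mice choroid plexus markers moved with this comparison, 8 of 8 above 0 (list level of 7.76 to 9.65 in P28 cannabis and 7.25 to 8.74 in P28 vehicle arrays, no call). Dentate granule neuron markers were above 0 in 0 of 4 (8.71 to 8.82 in P28 cannabis and 8.82 to 8.99 in P28 vehicle arrays, no call), and microglia markers in 2 of 7 (7.995 to 8.07 in P28 cannabis and 8.09 to 8.24 in P28 vehicle arrays, no call). For these last 2 lists the list level of every P28 cannabis array was below that of every P28 vehicle array. The ranges of all other cell type lists overlapped at P28, and the separation was not tested. The part of these markers in the values of the cell cycle genes was not tested.

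Whether the cannabis difference itself changed between P28 and adults was asked by the contrast of adults minus P28. P28 mice were killed soon after feeding, and adults weeks after the last dose and after behavioural tests. Age, time since the dose and that history cannot be told apart in this contrast. It gave 0 calls among the 15 and 0 among all probes (0%) by limma, with 531 of all probes at an unadjusted p below 0.05. The brightest Ccnd2 probe was the 1 member below that, at -0.39 ± 0.16 (SE, 95% interval -0.73 to -0.060, unadjusted p of 0.0234, adjusted p of 0.9996 by limma). Without replicate 3 of the P28 cannabis mice, the high array above, this value was -0.24. The second probe gave -0.41 ± 0.20 and the third -0.06 ± 0.11 (SE). The Mcm6 probes gave 0.28 ± 0.21, 0.14 ± 0.13 and 0.21 ± 0.10 and Nusap1 0.19 ± 0.10 (SE), so these genes had the opposite sign to Ccnd2 with intervals that include 0. Without replicate 3 of the P28 cannabis mice the brightest Mcm6 probe gave 0.14 and the second Ccnd2 probe -0.32. Within replicates 1 to 3 the second Ccnd2 probe gave -0.39, the brightest Mcm6 probe 0.19 and Mcm7 0.044, and within replicates 4 and 5 they gave -0.35, 0.38 and 0.26 in that order.

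Age was compared within each treatment. In cannabis mice, adults minus P28, 0 of the 15 probes were called, beside 5 of all probes (0.0274%) by limma, and 3 of the 15 had an unadjusted p below 0.05, as had 1937 of all probes. In vehicle mice 0 of the 15 were called, beside 195 of all probes (1.07%), of which 148 (0.811%) were lower and 47 (0.258%) higher in adults, and 1 of the 15 had an unadjusted p below 0.05, as had 2461 of all probes. None of the 15 had groups that did not overlap in either comparison. Over all probes that share was 1.25% higher and 1.45% lower in adults among cannabis mice, and 2.67% higher and 3.53% lower among vehicle mice. The 2 age comparisons share no arrays with each other, and each shares its arrays with a cannabis comparison.

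For Ccnd2 the age comparison in cannabis mice uses the adult and P28 cannabis values printed above, so it is no separate evidence beside the cannabis comparison. The brightest probe differed by -0.36 ± 0.11 (SE, unadjusted p of 0.00538, adjusted p of 0.227 by limma), the second by -0.31 ± 0.14, and the third by 0.11 ± 0.08 with the opposite sign. Without replicate 3 of the P28 cannabis mice the brightest probe was at -0.20. In vehicle mice the probes differed by 0.04 ± 0.11, 0.10 ± 0.14 and 0.17 ± 0.08 (SE), the last with an unadjusted p of 0.0450 and an adjusted p of 0.357 by limma. The probes of this gene therefore disagree in sign over age in cannabis mice. In those mice the second probe was at -0.36 within replicates 1 to 3 and -0.29 within replicates 4 and 5, and in vehicle mice at 0.030 within replicates 1 to 3 and 0.06 within replicates 4 and 5.

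The third Mcm6 probe (ILMN_2803399) read 7.34, 7.60, 7.49, 7.59 and 7.62 in adult cannabis mice, against 7.43, 7.30, 7.28 and 7.27 in P28 cannabis mice. Adult replicate 1 was the only adult array below a P28 array, and the difference was 0.21 ± 0.07 (SE, unadjusted p of 0.0102, adjusted p of 0.290 by limma). The brightest probe differed by 0.30 ± 0.15 and the second by 0.12 ± 0.09 in the same comparison. In vehicle mice the same 3 probes differed by 0.018 ± 0.146, -0.017 ± 0.091 and -0.0066 ± 0.0725 (SE, in order of brightness). The P28 cannabis value of 7.59 in the brightest probe, from replicate 3, was the lowest of its 18, and without that array the brightest probe differed by 0.16 over age in cannabis mice. It was at 0.19 within replicates 1 to 3 and 0.37 within replicates 4 and 5 in cannabis mice. In vehicle mice it was at -0.0025 within replicates 1 to 3 and -0.014 within replicates 4 and 5.

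The other members had age differences of these sizes. Ccnd1 differed by 0.15 ± 0.10 in cannabis mice and 0.05 ± 0.10 in vehicle mice in its brightest probe, and Ccnd3 by -0.15 ± 0.09 in cannabis mice and 0.015 ± 0.094 in vehicle mice (SE). Mcm4 and Mcm5 differed by -0.09 ± 0.06 each in cannabis mice, and by -0.0094 ± 0.0628 and -0.05 ± 0.06 in vehicle mice. Nusap1 differed by 0.05 ± 0.07 in cannabis mice and by -0.14 ± 0.07 in vehicle mice (SE), where the adult arrays were all at background and the P28 arrays read 7.10, 6.99, 6.87 and 6.94. No fold is given for that, because the P28 mean was not above the bound of the adult arrays. Mcm2 differed by -0.038 ± 0.059 in cannabis mice and -0.039 ± 0.059 in vehicle mice (SE). Mcm7 differed by 0.038 ± 0.076 in cannabis mice and -0.07 ± 0.08 in vehicle mice (SE). Its values in cannabis mice were 0.0087 within replicates 1 to 3 and 0.020 within replicates 4 and 5, and in vehicle mice -0.035 within replicates 1 to 3 and -0.24 within replicates 4 and 5.

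Over the same age step oligodendrocyte markers had differences below 0 in 7 of 7 genes in both treatments (5 called in vehicle mice, 0 in cannabis mice, list level of 10.42 to 11.19 in adult vehicle and 11.89 to 12.25 in P28 vehicle arrays). So did 6 of 6 oligodendrocyte precursor markers (4 called in vehicle mice, 0 in cannabis mice, 8.57 to 8.67 in adult vehicle and 9.06 to 9.27 in P28 vehicle arrays). Immature neuron markers were below 0 in 7 of 8 genes in vehicle mice (7.73 to 7.89 in adult vehicle and 8.26 to 8.45 in P28 vehicle arrays), with Igfbpl1 and Marcksl1 called, and in 8 of 8 in cannabis mice (7.73 to 8.36 in adult cannabis and 8.23 to 8.32 in P28 cannabis arrays, 0 called). Choroid plexus markers were below 0 in 8 of 8 genes in cannabis mice, with a median of -0.98 (7.41 to 7.64 in adult cannabis and 7.76 to 9.65 in P28 cannabis arrays), and in 7 of 8 in vehicle mice, with a median of -0.19 (0 called in either). Dentate granule neuron markers were above 0 in 4 of 4 genes in cannabis mice (8.90 to 9.38 in adult cannabis and 8.71 to 8.82 in P28 cannabis arrays, 0 called). In vehicle mice 3 of 4 were above 0, with a median of 0.17 (8.84 to 9.16 in adult vehicle and 8.82 to 8.99 in P28 vehicle arrays, 0 called). Of 2 blood markers, the haemoglobin gene Hba-a1 was called lower in adult vehicle mice, at -1.07 ± 0.23 (SE, adjusted p of 0.0303 by limma). The part of all these markers in the values of the cell cycle genes was not tested.

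Correlations between the members had either sign. Over the 18 arrays, after the group means were removed, the brightest Ccnd2 probe and the brightest Mcm6 probe had Pearson's r of -0.65. Mcm6 and Mcm7 had 0.48, and Ccnd3 and Mcm2 had 0.56. The first and last of these are the lowest and highest r among all pairs of the 9 genes. Among the other pairs, Ccnd2 and Nusap1 had -0.54, Ccnd3 and Mcm6 -0.51, and Ccnd3 and Mcm4 0.50. Mcm2, Mcm7 and Nusap1 were close to background. By raw values the brightest Mcm6 probe followed the second with r of 0.194 and the third with 0.558. Replicate 3 of the P28 cannabis mice held both the highest Ccnd2 and the lowest Mcm6 value, and over the other 17 arrays the r of these probes was -0.41, with 0.58 for Mcm6 and Mcm7 and 0.60 for Ccnd3 and Mcm2. These arrays share the division between replicates 4 and 5 and the rest, in which Mcm6 and Mcm7 were both higher. By their raw values over the 18 arrays the genes most like Ccnd2 were Coro2b, a coronin of the actin cytoskeleton (r of 0.816), Tnfaip8l3, a lipid-binding protein of the TNFAIP8 family (0.793), and Ints6, a subunit of the Integrator complex (0.792). Likeness was computed for Ccnd2 after its values were seen, since no member was called. The search ran over the 10438 genes above background, and the highest of so many r over 18 arrays can be large by chance. These r hold the group differences and the high P28 cannabis array.

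The rest of the cell cycle machinery was counted in 4 lists, 1 probe per gene, and 0 genes of them were called in any of the 5 contrasts by limma. Of 18 partners and brakes of the D cyclins 12 were above background, of 20 genes of origin licensing and helicase loading 15, of 22 genes of DNA synthesis 15, and of 32 later cyclins and mitotic genes 12. Those not above background include Cdk6, the other D cyclin kinase, Cdc6, the helicase loader, and the mitotic genes Top2a, Cdk1, Ccna2 and Aurkb. Top2a and Cdk1 exceeded the level on 2 of 18 arrays each. Mki67 and Ccnb1 were not analysed here.

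In adult cannabis against adult vehicle mice the medians of these lists were 0.025 for partners and brakes (9 of 12 above 0), -0.00098 for origin licensing (7 of 15), 0.038 for DNA synthesis (12 of 15) and 0.04 for later cyclins and mitosis (9 of 12), beside -0.0011 over all genes. Adults minus P28 in vehicle mice gave -0.09 (3 of 12 above 0), -0.0047 (7 of 15), -0.043 (3 of 15) and -0.08 (2 of 12) in the same order, beside -0.00052 over all genes. The lowest p values of each list in that contrast belong to the genes that follow, none of them called. Prc1, a microtubule bundler of the dividing cell's midzone, differed by -0.34 ± 0.08 (SE, adjusted p of 0.0545 by limma) and Cdk2, the kinase of cyclins E and A, by -0.32 ± 0.09. Cdc20, an activator of the anaphase-promoting complex, differed by -0.16 ± 0.06.

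Among replication genes Rfc2, a subunit of the clamp loader, differed by -0.24 ± 0.06 (SE, adjusted p of 0.0600 by limma), Rrm1, the large subunit of ribonucleotide reductase, by -0.12 ± 0.06, and Rfc5, another clamp loader subunit, by -0.09 ± 0.05. Cdkn1c, an inhibitor of cyclin-dependent kinases, differed by -0.74 ± 0.26, Cdk4 by -0.20 ± 0.08 and Cdkn2c, an inhibitor of Cdk4 and Cdk6, by -0.18 ± 0.07. Origin genes went both ways: Orc3 of the origin recognition complex differed by 0.20 ± 0.06, Cdc7, the kinase that activates the loaded helicase, by 0.24 ± 0.10, and Orc6 by -0.20 ± 0.11 (SE). Cdk4 thus stood at a mean of 7.54 in adult vehicle and 7.74 in P28 vehicle mice, and Prc1 at 7.10 in adult vehicle and 7.45 in P28 vehicle mice.

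**Figure D4:**
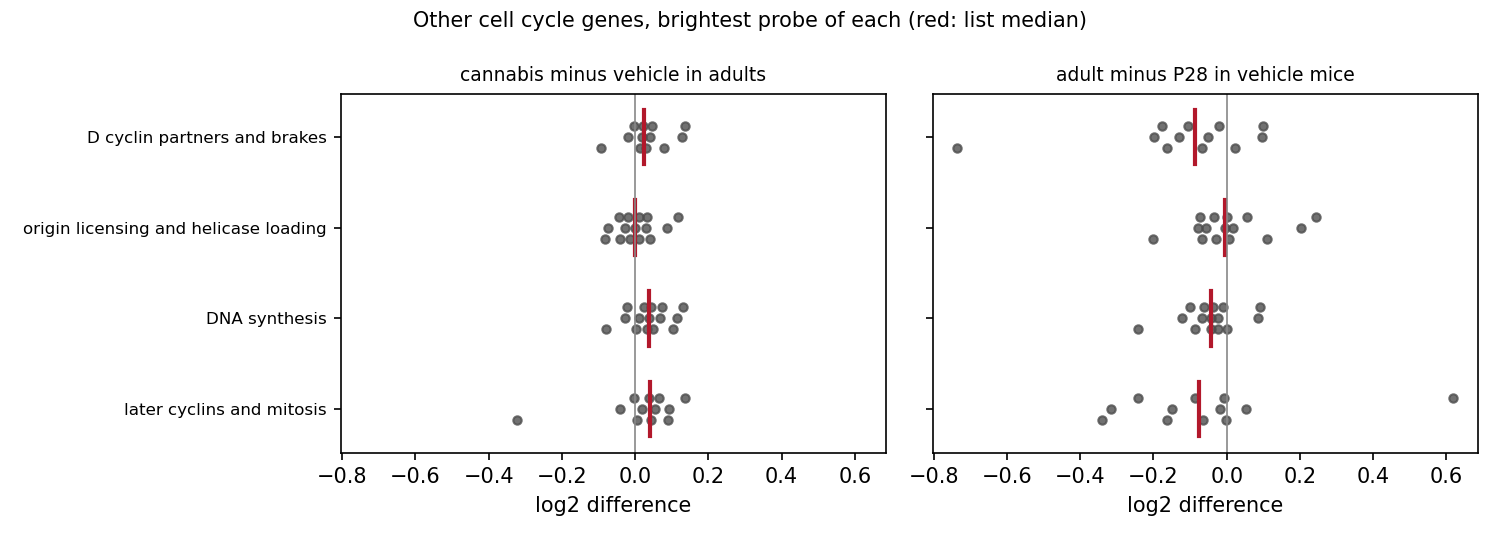
Differences of log2 intensity (x axis) of the other cell cycle genes above background, 1 point per gene in 4 lists (y axis), for cannabis minus vehicle in adults and for adults minus P28 in vehicle mice; red bars are list medians. In vehicle mice 2 of the 12 later cyclins and mitotic genes lie above 0, and the point at 0.62 is Anln, whose gene product organises the contractile ring.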

How the data were processed

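Values are the log2 intensities of the authors' deposited value table, whose 18 columns hold the same distribution (median 6.86, range 6.50 to 15.08). The submitters' processing notes name Partek, and the steps are not given in the sources used here. Another 72 per-sample columns of the deposited tables are named by slide position (3 slides of 6 positions), match no sample label and were not used. Genes were named from the platform annotation (34885 probes with 1 symbol, 18 with several and 10378 unnamed here).

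Probes above 6.98 on at least 4 arrays were kept, a level set as the mode of unexpressed probes (6.77) plus 3 SD (0.0702). limma 3.58.1 (R 4.3.3) fitted a mean for each of 4 groups over 18 arrays (14 residual and 3.93 prior degrees of freedom), with moderated 2-sided p-values adjusted by Benjamini-Hochberg over the 18249 probes and called at 0.05. The fit was tested on simulated data with independent noise and no division between replicates, so that test does not show how well small differences are found in these arrays. A gene is led by its brightest probe. From each list the 3 genes with the smallest p over age in vehicle mice are named. Members and lists were chosen with earlier results of these data known. The number of arrays limits the precision.

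Same-numbered cannabis and vehicle arrays at P28 deviated together (correlations of 0.196 to 0.534, all above 0.1). A block by replicate number over all groups was therefore added, a choice that no label states. In adults and between ages some correlations were below 0.1, so numbers only name arrays there. The block nevertheless ties same-numbered arrays there too. Alternatives were filters, priors, blocks, subsets, background correction (normexp, offset 16) and leaving out each array. Fits within the first and second sets of 6, and the correlations without 1 array, were chosen after seeing the data.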

Additional observations from a re-analysis of the deposited data

Results flagged for a closer look

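The third Ccnd1 probe in adult vehicle mice holds 1 array, replicate 3, at 6.91, below the other 4 arrays, of which the nearest reads 7.05. The gap is 0.714 of the whole range of the group, past the critical share of 0.71 for 5 arrays. The probe is close to background, and the array was below the background level. It is the only such value among 60 groups of arrays checked over the 15 probes, and chance flags about 1 group in 20.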

How the results depend on the processing

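Member probes called were 0 in all 5 contrasts under every alternative run (30 settings, of which the fit of only the groups compared gives no value for the change with age). Of 2215 alternative values of the 75 member differences, 2056 had the sign of the reported value and 159 the other sign, and none was called. Filters, priors and leaving out an array of a group not compared cannot change a member difference. Many of these values therefore only repeat the reported one. The block by replicate number changed no member call. Counts over all probes moved more. For adults minus P28 in cannabis mice the 5 calls became 0 with no filter, 20 with the level exceeded on all 18 arrays, 12 with a trend and robust prior, 0 with only the groups compared, 53 with the replicate block, 141 with the sets of 6 as a block, 8 with replicates 4 and 5 against 1 to 3 as a block, 0 within replicates 1 to 3, 32 within replicates 4 and 5, 0 within the first and 0 within the second set of 6, 15 with normexp, and 0 to 102 without 1 array. In vehicle mice the 195 calls became 99 with no filter, 375 with only the groups compared and 359 with the replicate block. There were 554 with the sets as a block, 419 with replicates 4 and 5 as a block and 4 within replicates 1 to 3. Without 1 array there were 28 to 317. Within replicates 4 and 5 the calls for cannabis against vehicle were 16 at P28 and 1 in adults, and 12 for the change of that difference with age. Without 1 array the P28 count was 0 to 11, with 11 reached without replicate 1 of the cannabis mice. The cause of these shifts was not tested. Dim probes (Mcm2, Mcm7, Nusap1) limit what can be measured of those genes, and probes below background, such as that of Mcm3, show nothing of theirs.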
